A study of Mus musculus with 4 samples.

Results

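The Mediator subunit genes were taken as the protein-coding genes of GENCODE release M21 whose symbol was Med followed by a number (with or without a final l), together with Cdk8, Cdk19 and Ccnc, which encode the kinases and the cyclin of the complex. This gave 33 of 21951 protein-coding genes. Occupancy by Eya1, a transcriptional coactivator with phosphatase activity that works with the homeodomain factor Six2 in nephron progenitors, was read from 2 peak lists made by chromatin immunoprecipitation and sequencing (ChIP-seq) of mouse kidneys at E13.5. The kidneys carried the Eya1 HA-FLAG knockin allele, which adds HA and FLAG tags to Eya1 at its own locus, and chromatin was pulled down with anti-FLAG beads. The series held 4 samples. In 2 of them tagged Eya1 was pulled down, and the input and the IgG control came from the same knockin at the same age, on a mixed strain background. Each assay used 80 pooled kidneys, so a peak is an average over all cell types of the organ and over embryos. The labels name no treatment. The zygosity of the knockin is not given in the sources used here, nor is whether the 2 pools came from separate litters.

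Within 1 kb of a protein-coding gene start, replicate 1 held 3989 peaks and replicate 2 held 3465. The lists give positions only, so peak height and sequencing depth are unknown and a peak was scored as present or absent. The tissue label was not checked, since peak positions carry no expression values. Neither control sample was analysed here, so no background peak list stands beside these values.

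Mediator is the large complex that carries signals from DNA-bound transcription factors to RNA polymerase II. Its head and middle modules contact the polymerase, Med14 is the scaffold that joins the modules, the tail module receives most activators, and a separable kinase module of Cdk8 or Cdk19, cyclin C, Med12 and Med13 (or their paralogues) controls whether the rest of the complex can engage the polymerase. The genes are expressed in most cells and most of them start in CpG islands, stretches of promoter DNA that keep a high density of CpG dinucleotides. The data address whether Eya1 peaks lie at the promoters of these genes, and at which of them.

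The sequences at which Eya1 peaks of both replicates met show how much these sites differ in base composition. Printed in the direction of transcription of the Mediator gene on GRCm38 (the assembly of mm10), with each CpG dinucleotide in capitals, are the replicate 2 intervals at chr2:26911181-26911302 for the head gene Med22 (minus strand), at chr11:59948318-59948434 for the middle gene Med9 (plus strand), at chr10:79908670-79908817 for the tail gene Med16 (minus strand) and at chr11:86357700-86357816 for the kinase-module gene Med13 (minus strand). The Med16 line holds 148 bp of a 230-bp peak, because the other 82 bp are annotated as untranslated region. The last line is a promoter with no peak, the 250 bp upstream of Med14 at chrX:12762074-12762323 (minus strand).
Med22: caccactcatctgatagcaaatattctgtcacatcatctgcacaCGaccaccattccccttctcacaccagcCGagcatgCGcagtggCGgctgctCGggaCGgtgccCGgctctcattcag
Med9: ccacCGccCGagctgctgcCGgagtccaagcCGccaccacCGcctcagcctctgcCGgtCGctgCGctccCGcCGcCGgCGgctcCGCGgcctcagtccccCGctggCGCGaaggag
Med16: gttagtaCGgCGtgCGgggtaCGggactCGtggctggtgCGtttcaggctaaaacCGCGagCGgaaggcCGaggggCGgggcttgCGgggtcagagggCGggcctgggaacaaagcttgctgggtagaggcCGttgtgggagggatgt
Med13: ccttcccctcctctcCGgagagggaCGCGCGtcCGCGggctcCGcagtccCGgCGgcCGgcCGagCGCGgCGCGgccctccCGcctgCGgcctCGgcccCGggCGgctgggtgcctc
Med14: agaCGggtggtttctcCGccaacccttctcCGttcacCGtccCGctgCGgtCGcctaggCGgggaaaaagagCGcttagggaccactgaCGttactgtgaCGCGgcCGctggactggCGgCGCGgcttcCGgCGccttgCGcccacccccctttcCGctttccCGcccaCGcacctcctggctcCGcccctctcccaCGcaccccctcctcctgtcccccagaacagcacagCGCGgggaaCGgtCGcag
The Med13 interval held 20 CpG dinucleotides in 117 bp and the Med9 interval held 17 in the same length. The Med22 interval, which lies in an intron of the neighbouring gene Rpl7a, held 7 in 122 bp. The printed stretch of Med16 held 14 in 148 bp. The Med14 promoter held 28 CpG dinucleotides in 250 bp and carried no peak of either replicate. The printed peaks were picked as the shared replicate 2 peaks richest in CpG per bp of their module. Med14 was picked as a member on the X chromosome with no peak. These stretches are therefore examples and do not compare occupied with unoccupied members.

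A gene was called occupied when a peak lay within 1 kb of any of its annotated transcription start sites (TSSs), and shared when a replicate 1 peak and a replicate 2 peak there overlapped by at least 1 bp. Of the 33 Mediator genes, 12 were occupied in at least 1 replicate and 21 in neither. Replicate 1 occupied 11 members, against 20.2% of all protein-coding genes. Replicate 2 occupied 8, against 14.7% of all genes. The shared call was made at 6 members (Med22, Med9, Med21, Med15, Med16 and Med13), against 11.3% of all genes, and a peak of either replicate lay at 36.4% of members, against 23.5% of all genes. Of the 12 occupied members, 4 were seen in replicate 1 only (Med8, Med17, Med29 and Cdk19), 1 in replicate 2 only (Med13l), and 1 (Med26) had a peak of each replicate that did not touch.

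Promoters rich in CpG were occupied far more often across the genome, and the Mediator genes are rich in CpG. The CpG ratio, the observed number of CpG dinucleotides over the number that the base composition would give, was computed in the 500 bp to either side of the 5′ end of each gene. Its median was 0.74 over the 33 members and 0.55 over all protein-coding genes. With all genes put into 10 equal bins by CpG ratio, the share with a peak of either replicate went from 1.46% in the lowest bin to 62.5% in the highest. The 4 highest bins held 27 of the 33 members and 10 of the 12 occupied ones.

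**Figure D1:**
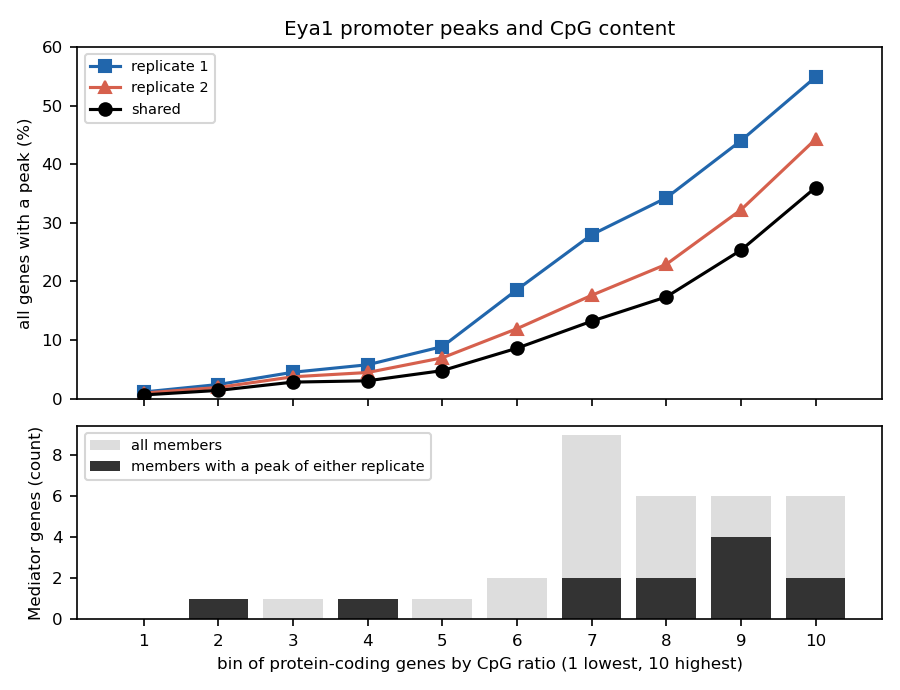
Protein-coding genes split into 10 equal bins by CpG ratio (x axis, 1 lowest to 10 highest). The upper panel gives the percent of genes with a replicate 1, replicate 2 or shared Eya1 peak within 1 kb of a TSS, which is highest in the bin with the highest ratio, and the lower panel gives the number of Mediator genes in each bin, all (grey) and occupied (black).

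Set beside promoters of like CpG content, the members were occupied about as often as other genes. For each member the 100 non-member genes nearest in CpG ratio were taken, and the share occupied was averaged over members. Replicate 1 peaks lay at 33.3% of members (exact Clopper-Pearson 95% confidence interval, 18% to 51.8%) and at 33.9% of CpG-matched genes. The values for replicate 2 were 24.2% (11.1% to 42.3%) and 24.4%. Shared peaks lay at 18.2% of members (6.98% to 35.5%) and at 19.1% of CpG-matched genes, and peaks of either replicate at 36.4% (20.4% to 54.9%) and 39.2%. Expressed as a number of genes, the matched share of 39.2% corresponds to 12.9 members, and 12 were seen. The CpG-matched share lay inside the interval of the members in all 4 readings, and those intervals, which cover counting over 33 genes only, also held the share over all protein-coding genes in all 4. No test was run, since the members are not replicates of a condition.

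**Figure D2:**
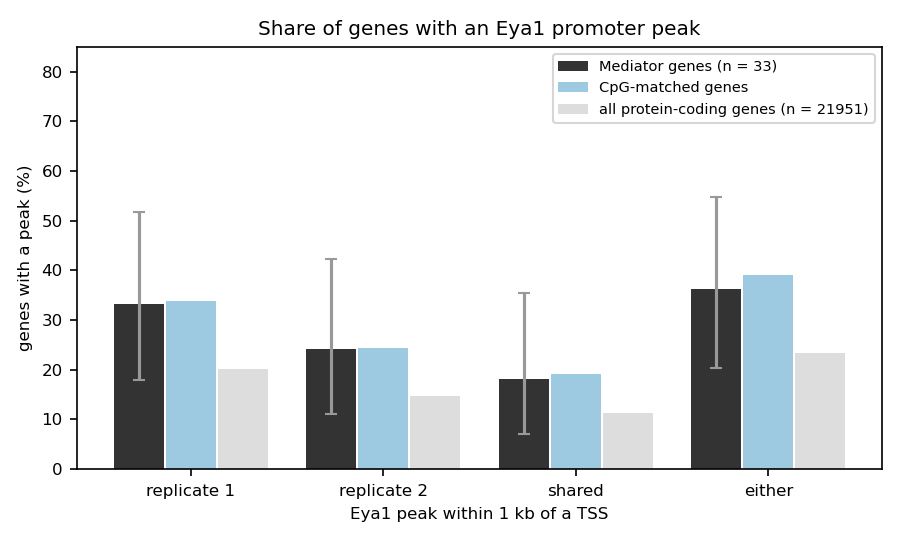
Percent of genes with an Eya1 peak within 1 kb of a TSS (y axis) for replicate 1, replicate 2, shared peaks and peaks of either replicate. Bars give the 33 Mediator genes with exact 95% confidence intervals, the mean of their CpG-matched genes and all protein-coding genes; members and CpG-matched genes differ by less than 3 percentage points in each reading, well within the intervals.

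The occupied genes were spread over the modules. A peak of either replicate lay at 3 of 9 head genes, 3 of 9 middle genes, 3 of 7 tail genes and 3 of 7 kinase-module genes, and not at the scaffold gene Med14. The CpG-matched shares were 41.6%, 34.7%, 35.9% and 43.4% for the head, middle, tail and kinase modules. With so few genes, the exact interval was 7.49% to 70.1% for 3 of 9 and 9.90% to 81.6% for 3 of 7, so modules could not be told apart. Shared peaks lay at 1 head, 2 middle, 2 tail and 1 kinase-module gene. The CpG-matched shares with a shared peak were 18.9%, 17.1%, 17.0% and 21.9% in the same order.

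**Figure D3:**
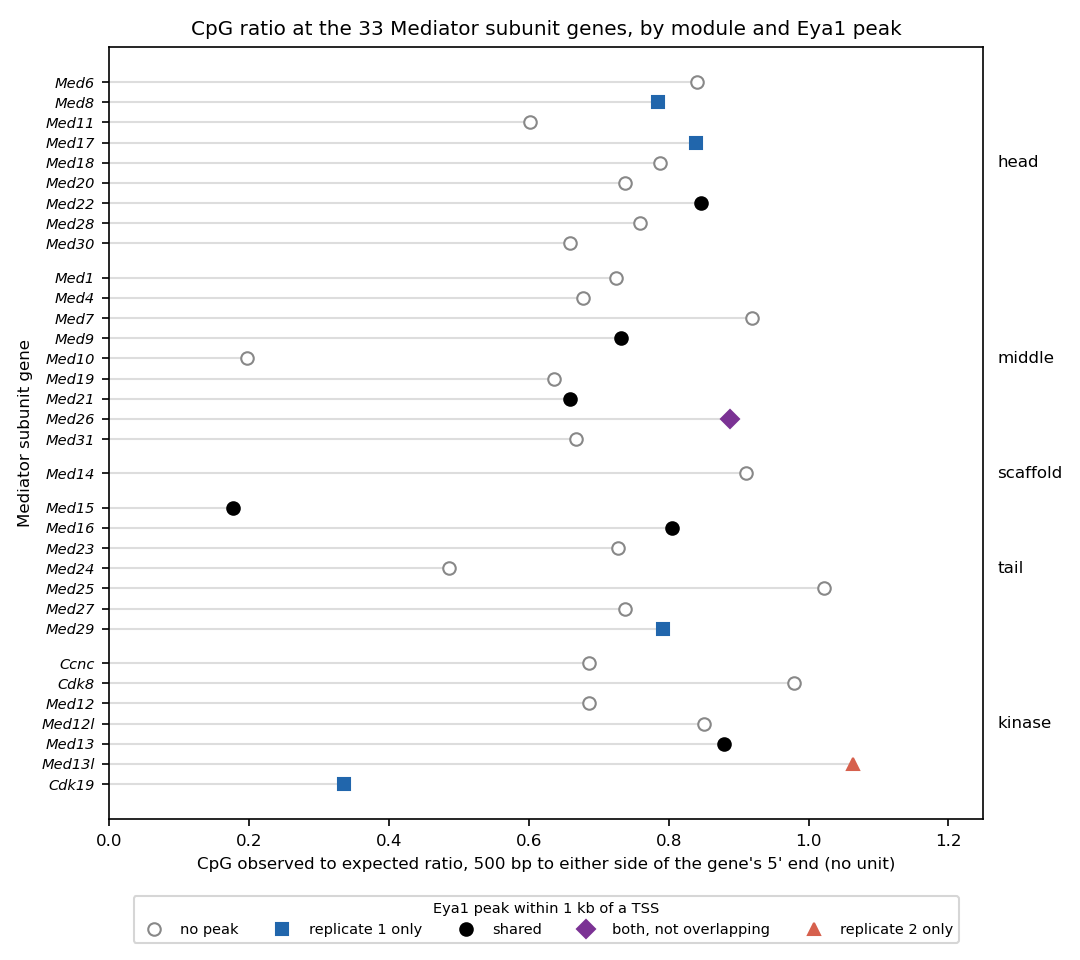
CpG ratio of the 33 Mediator genes (x axis) by gene and module (y axis). Symbols give the Eya1 call within 1 kb of a TSS; open circles, the 21 genes with no peak, run from 0.20 (Med10) to 1.02 (Med25), and the occupied genes run from 0.18 (Med15) to 1.06 (Med13l).

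In the head module, the part of Mediator that meets the polymerase and its initiation factors, Med22, Med8 and Med17 were occupied. At Med22 a replicate 1 peak of 1789 bp (chr2:26910126-26911914), the widest at any member, reached from -1237 to +551 bp of the 5′ end, where negative values are upstream. The replicate 2 peak there was 122 bp wide and ended 504 bp upstream of Med22. A TSS of Rpl7a, which encodes a ribosomal protein and is read in the opposite direction, lay 87 bp from the nearest TSS of Med22. The replicate 2 peak fell in an intron of Rpl7a, over a small nucleolar RNA gene (Gm23969). At Med8 a replicate 1 peak of 961 bp (chr4:118408887-118409847) covered the 5′ end from -450 to +510 bp. At Med17, a core subunit of the head, a replicate 1 peak of 1009 bp (chr9:15279406-15280414) lay from -483 to +525 bp, with no other protein-coding TSS within 1 kb. Replicate 2 had no peak within 1 kb of Med8 or Med17, and its nearest were 229426 and 77601 bp from a TSS of these genes. The other 6 head genes (Med6, Med11, Med18, Med20, Med28 and Med30) carried none.

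In the middle module, Med9, Med21 and Med26 were occupied in both replicates. Med9 had a replicate 1 peak of 1045 bp (chr11:59947935-59948979) from -271 to +773 bp and, inside it, a replicate 2 peak of 117 bp from +112 to +228 bp, over the coding part of an exon. Med21 had a replicate 1 peak of 1227 bp (chr6:146642269-146643495) and 2 replicate 2 peaks inside it, of 180 bp from +60 to +239 bp and of 158 bp from +651 to +808 bp. The first of these held 17 CpG dinucleotides and the second held 3. A TSS of Tm7sf3, which encodes a membrane protein and is read the other way, lay 223 bp from the nearest TSS of Med21. Med26, the subunit known for recruiting elongation factors, had a replicate 1 peak of 1070 bp (chr8:72547223-72548292) that started at -22 bp and ran into the gene to +1047 bp, whereas its replicate 2 peak of 117 bp (chr8:72548637-72548753) lay wholly upstream, from -483 to -367 bp. The replicate 1 peak thus covered the TSS and the start of the gene, and the replicate 2 peak only upstream sequence. Med1, which binds nuclear receptors, carried no peak, and neither did Med4, Med7, Med10, Med19 or Med31.

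In the tail module, Med15, Med16 and Med29 were occupied. Med15, a target of activators of lipid genes, was occupied at an internal promoter and not at its annotated 5′ end. Its replicate 1 peak of 1128 bp (chr16:17722119-17723246) and its replicate 2 peak of 283 bp (chr16:17722646-17722928) lay over TSSs about 10070 bp inside the gene. The CpG ratio was 0.18 at the 5′ end and 0.68 at the TSS of the gene with the highest ratio. At Med16 a replicate 1 peak of 607 bp (chr10:79908379-79908985) and a replicate 2 peak of 230 bp (chr10:79908670-79908899) lay from -62 to +544 bp and from +24 to +253 bp. Med29 had 2 replicate 1 peaks and no peak over its TSS. The first, of 371 bp (chr7:28392149-28392519), was the narrowest replicate 1 peak at any member and covered coding exon from +189 to +559 bp. The second, of 903 bp (chr7:28392976-28393878), lay from -1170 to -268 bp over TSSs of Paf1, which encodes an elongation factor. The Paf1 TSS nearest to that of Med29 lay 243 bp away on the other strand. Med23, Med24, Med25 and Med27 carried no peak.

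In the kinase module, the paralogues of a pair were not always called alike. Med13, which tethers the module to the core complex, had a shared call, and its paralogue Med13l had a replicate 2 peak only. Cdk19 was occupied in replicate 1 and Cdk8 in neither replicate. Med12 and Med12l both carried no peak, as did Ccnc. Med13 had 2 peaks in each replicate, placed on both sides of a gap. Replicate 1 peaks of 766 bp (chr11:86356884-86357649) and 614 bp (chr11:86357752-86358365) ran from -47 to +718 bp and from -763 to -150 bp, and replicate 2 peaks of 161 bp (chr11:86357451-86357611) and 117 bp (chr11:86357700-86357816) ran from -9 to +151 bp and from -214 to -98 bp. The peak of Med13l, 121 bp wide (chr5:118559851-118559971), lay from -828 to -708 bp, the farthest from a TSS of any counted. The Cdk19 peak of 1076 bp (chr10:40349193-40350268) covered an internal TSS 9744 bp from the 5′ end, with a CpG ratio of 0.34 at the 5′ end and 0.99 at the TSS with the highest ratio. No difference between paralogues could be tested from 1 call per replicate.

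**Figure D4:**
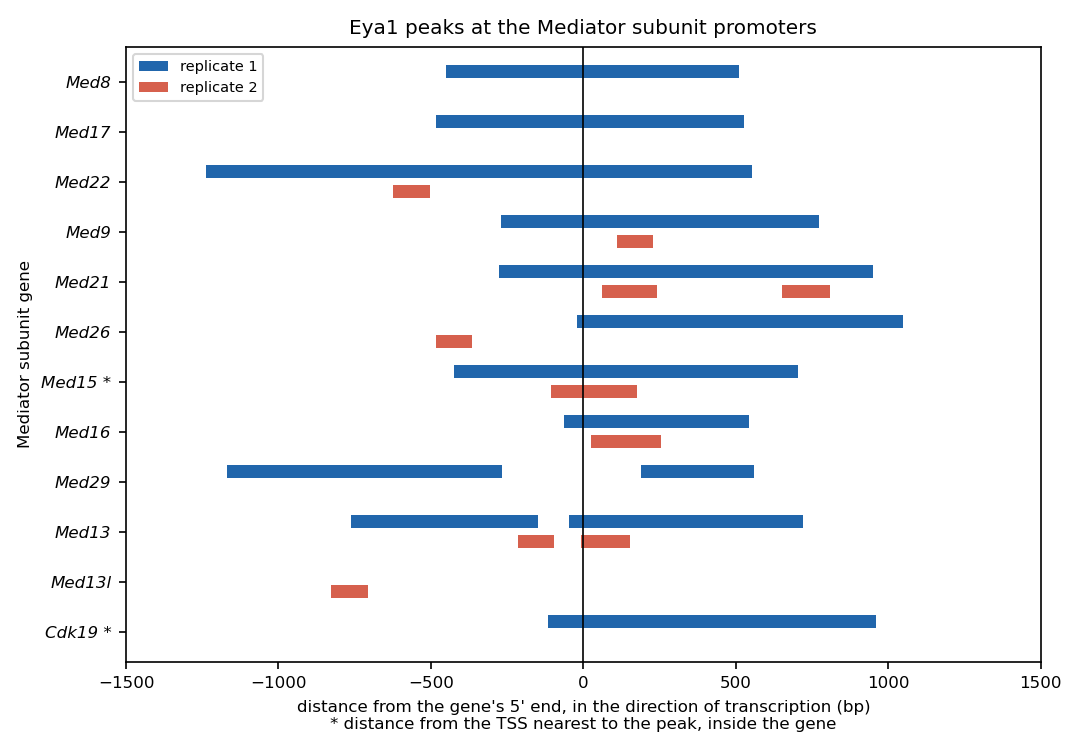
Eya1 peaks of replicate 1 (blue) and replicate 2 (red) at the 12 occupied Mediator genes (y axis), by distance from the 5′ end in the direction of transcription (x axis, bp; for Med15 and Cdk19, marked with an asterisk, distance from the nearest internal TSS). Replicate 1 peaks cover the line at 0 in all genes with one but Med29, and most replicate 2 peaks lie to one side of it.

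Replicate 1 peaks held a TSS more often than replicate 2 peaks, at the members as across the genome. Promoter peaks had a median width of 1100 bp in replicate 1 and 199 bp in replicate 2. Whether a peak holds a TSS depends on its width as well as its position, so these shares do not measure position alone. Of the 11 members with a replicate 1 peak, 10 (90.9%) had a TSS inside the peak, as did 90.9% of the 4444 genes called in replicate 1. Of the 8 members with a replicate 2 peak, 3 (37.5%) had a TSS inside it, namely Med15, Med16 and Med13, against 33.5% of 3227 genes. The overlap of the lists was also close to that of all genes, since 54.5% of the members called in replicate 1 and 75.0% of those called in replicate 2 had a shared peak, against 55.9% and 77.0% of all genes so called. Of the 10 replicate 2 peaks at members, 7 lay wholly inside a replicate 1 peak.

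Peaks at members had median widths below those at other promoters in both replicates, though the interval of each median held the value for other promoters. The 13 replicate 1 peaks at members had a median width of 1009 bp (95% confidence interval, 614 to 1128 bp, range, 371 to 1789 bp), against 1100 bp for the 3989 replicate 1 peaks within 1 kb of a protein-coding TSS and 1103 bp at CpG-matched promoters. The 10 replicate 2 peaks had a median of 140 bp (117 to 230 bp, range, 117 to 283 bp), against 199 bp for 3465 promoter peaks and 208 bp at CpG-matched promoters. The smallest width in the replicate 2 list was 117 bp, and 3 of the 10 member peaks (30.0%), at Med9, Med26 and Med13, had exactly this width, compared with 6.03% of replicate 2 promoter peaks. The cutoff behind that smallest width is not given in the sources used here. Replicate 1 peaks at members that overlapped a replicate 2 peak had a median width of 1045 bp (n = 7), and the others 985 bp (n = 6).

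**Figure D5:**
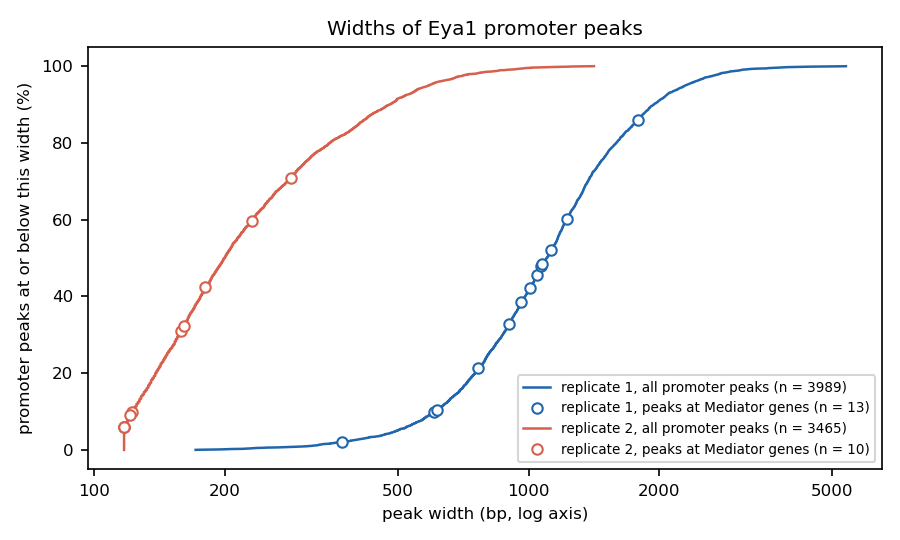
Cumulative percent of promoter peaks (y axis) by width (x axis, bp, log scale) in replicate 1 (blue line) and replicate 2 (red line), with the peaks at Mediator genes as open circles on their own list's line. Replicate 1 members lie from 371 to 1789 bp and replicate 2 members from 117 to 283 bp, and 8 of the 10 replicate 2 member peaks are narrower than the median promoter peak of that list.

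All 21 unoccupied members lay well beyond 1 kb from any peak. The distance from their nearest TSS to the nearest peak of either replicate ran from 7069 bp at Med31 to 825999 bp at Med10, with a median of 41646 bp, so none lay just outside the 1-kb limit. No member had a peak in its gene body beyond 1 kb of a TSS. At the 5′ end, the median CpG ratio was 0.80 (0.18 to 1.06) at the 12 occupied members and 0.73 (0.20 to 1.02) at the 21 others. The 2 lowest occupied values, 0.18 at Med15 and 0.34 at Cdk19, were measured at 5′ ends with no peak, since both genes were occupied at the internal TSSs described above. Among the members with no peak, Med25, which binds activators, had a CpG ratio of 1.02 and 67% of its CpG-matched genes had a peak of either replicate. The same share was 61% for Cdk8 (0.98), 62% for Med7 (0.92) and 51% for Med14 (0.91). Med14 and Med12, the members on the X chromosome, were both unoccupied, on a chromosome where 2.53% of 948 protein-coding genes had a peak of either replicate. Among the 31 autosomal members that share was 38.7%, and 38.9% in their CpG-matched genes.

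A shared promoter region left the gene behind a peak unresolved at several members. For 6 members a TSS of another protein-coding gene lay within 1 kb of a TSS of the member. Of these, 4 (66.7%) were occupied, compared with 8 of the 27 other members (29.6%). Over all protein-coding genes the same shares were 42.9% of 3209 genes and 20.1% of 18742 genes. At Med22, Med21 and Med29 every counted peak lay within 1 kb of the TSS of the neighbour (Rpl7a, Tm7sf3 and Paf1), so these peaks cannot be assigned to 1 gene of the pair.

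Other genes of the transcription machinery were counted in the same way. The RNA polymerase II subunit genes were occupied in either replicate at 4 of 12 (exact 95% interval, 9.93% to 65.1%, CpG-matched share, 40.4%). Among them was Polr2a, which encodes the largest subunit, in replicate 1. No gene of this list had a shared peak (CpG-matched share, 19.75%). The general initiation factor genes were occupied at 13 of 32 (exact 95% interval, 23.7% to 59.4%, CpG-matched share, 43.9%). They included Tbp, which encodes the TATA-binding protein, in replicate 1, and Gtf2a1 and Cdk7 in both. Shared peaks lay at 6 (CpG-matched share, 21.7%). The pause release and elongation factor genes were occupied at 17 of 25 (exact 95% interval, 46.5% to 85.1%; CpG-matched share, 42.8%), with shared peaks at 12, among them Ccnt1, Ccnt2, Hexim1 and Aff4. The genes of cohesin and its loader, which work with Mediator in holding enhancers near promoters, were occupied at 9 of 10 (55.5% to 99.7%, CpG-matched share, 54.9%). Shared peaks lay at 7 (70.0%, CpG-matched share, 32.0%), among them Nipbl, Mau2 and Smc3. The last 2 lists stood above their CpG-matched shares, and the Mediator genes, at 12 of 33, did not. The lists were chosen with earlier results of these data known, so their shares are a description and not independent evidence. The differences between lists were not tested.

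Short promoter motifs were searched on both strands from 250 bp before to 50 bp after each 5′ end, and no motif in the search was part of another. Each share among members is given beside that of all protein-coding genes and that of the CpG-matched genes. The GC box GGGGCGGGG was found at 2 members (6.06%; 14.5% of all and 22.1% of matched genes), Med6 and Med21. The CCAAT box (CCAAT) was present at 15 of 33 members (45.5%, against 39.0% and 38.6%), at 4 of the 12 occupied members and at 11 of the 21 others. The occupied members include Med15 and Cdk19, whose peaks lay at internal TSSs outside the searched window. The ETS motif CCGGAAGT was found at 3 members (9.09%; 4.69% and 7.36%), namely Med8, Med17 and Med18. The ZNF143 and THAP11 motif ACTACAATT was found at 2 members (6.06%; 0.497% and 0.727%), Med11 and Med24, both unoccupied. The TATA box (TATAAA) was found at 4 members (12.1%; 12.7% and 7.55%), and the E-box CACGTG at 4 (12.1%; 7.75% and 9.79%). The YY1 motif AAGATGGCG was found at 2 members (6.06%; 1.70% and 3.46%), and at 1 member each (3.03%) the NRF1 motif GCGCATGCG (2.48% and 4.12%) and the cyclic AMP element TGACGTCA (2.43% and 3.18%). These are matches of letters and not measurements of binding.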

How the data were processed

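Eya1 ChIP-seq was performed on E13.5 kidneys of Eya1 HA-FLAG knockin mice. Per the study's methods, the authors used Bowtie (default settings, mm10) and then MACS, run at several P cutoffs with input or IgG as control, and kept the common peaks; the submitters' processing notes name HISAT2 as well. The deposited peak lists hold chromosome, start and end only (genomic positions, with no score, signal or count), and the cutoff and control behind each list are not given in the sources used here. Positions are printed 1-based.

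Members and lists were chosen with earlier results of these data known. Peaks were assigned to genes with GENCODE M21 in Python 3.11.15 with pandas 2.3.3 and numpy 2.4.6. Sequence was read with pysam 0.24.0, intervals came from scipy 1.17.1 and plots from matplotlib 3.10.9. A count with bedtools 2.31.1 also gave 4444 and 3227 genes. The assignment was tested on simulated peaks, and 800 of 800 planted calls were recovered with 0 false calls. These calls add up replicate 1, replicate 2, shared and either-replicate calls, so the same gene can count more than once. Confidence intervals were Clopper-Pearson for shares and from order statistics for medians (95%), and cover counting over genes or peaks only. Every member could be named, with the genes that share a peak with one and the genes of the 4 lists. Sequences were printed for the shared replicate 2 peak of at most 300 bp with the most CpG per bp in each module, and for a member on the X chromosome with no peak. Alternatives changed the distance, the TSSs, the overlap, the peak widths, the replicates, the matching and the module assignment.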

Additional observations from a re-analysis of the deposited data

How the results depend on the processing

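Of 92 values recomputed for 14 results, 72 stayed close to the reported value. Close meant within 1.5 times for a count, inside the 95% interval of the median for a width and inside the 95% binomial interval for a CpG-matched share. With the narrower peaks of each list (below its median width) left out, replicate 1, replicate 2, shared and either-replicate peaks were left at 5, 2, 1 and 6 members, and the median width at members in replicate 2 was 256.5 bp, by construction wider. When a peak had to contain the TSS, 3 members remained in replicate 2 and the same 3 as shared (Med15, Med16 and Med13), the median width at members in replicate 2 was 230 bp in place of 140 bp (the upper end of its interval), and the CpG-matched shares were 31.4%, 9.39%, 7.67% and 33.1% for replicate 1, replicate 2, shared and either. When 50% of both peaks had to overlap, 0 members and 1.67% of CpG-matched genes had a shared peak, replicate 2 peaks being much narrower. Matching on the number of CpG dinucleotides in place of the ratio gave 30.7%, 21.4%, 16.2% and 35.8%. Without replicate 1 or without replicate 2, the CpG-matched share with any peak ranged from 24.4% to 33.9%, and the members with a peak from 8 to 11. Med27 and Med29 were also placed in the head and Med14 in the tail. A peak of either replicate then lay at 4 of 11 head genes and 2 of 6 tail genes. The middle and kinase-module counts stayed at 3. Matching on the TSS with the highest CpG ratio gave 41.2% for either replicate. This matching was added after the data had been seen.

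No paired analysis was possible because both replicates belong to 1 group and no test was made. Depth and peak height are unknown, so a member with no peak may have been missed. With 33 genes, a share near that of CpG-matched genes does not show that the shares are equal.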
